A study of Mus musculus with 19 samples.

Results

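The 31 genes described here make, sense, store and export cholesterol: 19 enzymes that build sterols, 1 enzyme of the isoprenoid branch, 4 genes of the sterol sensor, a sterol carrier, a sterol esterifying enzyme and 5 genes of the liver X receptor (LXR) arm. They were listed by symbol and found through their Entrez Gene identifiers, and all 31 matched a row among the 36528 identifiers in the count tables. The study sequenced polyadenylated RNA from alveolar type II (AT2) cells, the surfactant-secreting cells of the alveolus, and from whole lung of mice. Control mice carried SpcCreERT2, a tamoxifen-activated Cre recombinase under the surfactant protein C promoter, and the Rosa tdTomato reporter. Mice labelled Etv5KO carried both of these and, in addition, Etv5ko/loxp, that is 1 knockout and 1 loxP-flanked allele of Etv5. Mice of both genotypes received tamoxifen, 100 mg/kg on 5 days, and waited another 5 days, and their AT2 cells were sorted as EpCAM+, tdTomato+, CD45- and CD31-. AT2 cells gave 4 libraries from controls and 5 from mice labelled Etv5KO, and whole lung gave 5 and 5. By this design Cre acts on the loxP-flanked allele only in cells that have used the surfactant protein C promoter, while the knockout allele does not depend on Cre.

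Cells build cholesterol from acetyl-CoA through mevalonate, farnesyl diphosphate and squalene. When sterols in the endoplasmic reticulum run low, the escort protein Scap carries the transcription factor SREBP2 to the Golgi, where it is cut and freed to switch on nearly every gene of synthesis. When sterols are plentiful, the Insig proteins hold Scap back, and oxysterols activate LXR, which switches on the cholesterol exporters. In AT2 cells cholesterol is packed with phospholipid into lamellar bodies and secreted as part of surfactant.

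Total counts lay between 20279607 and 28671262 in control AT2 libraries, 17426415 and 26722625 in AT2 libraries labelled Etv5KO, 14971793 and 26989453 in control lung and 20332410 and 22478603 in lung labelled Etv5KO. Levels are edgeR's CPM, counts scaled by library size with TMM over all 19 libraries, given as mean ± SD. A gene rose, fell or passed when the adjusted p of edgeR's quasi-likelihood test was under 0.05. The targeted gene, Etv5, had no lower count where the label is Etv5KO, with 667 ± 36.1 CPM (n = 4) in control AT2 cells against 714 ± 58.4 CPM (n = 5). Counts cover the whole gene model, per the file headers, so this value does not check the deletion. All 8 AT2 markers stood 6.26 to 9.65 times higher in AT2 cells of controls than in their whole lung, and all 8 endothelial, 8 fibroblast and muscle and 9 macrophage markers tested were lower there. Of 8 lymphocyte markers 7 were lower and Cd79b did not pass, of 8 AT1 markers 6 were lower and Ager and Aqp5 higher (1.40 and 2.61 times), and of 7 airway markers tested 6 were lower and Krt15 higher (1.11 against 0.12 CPM). Among the AT2 libraries, control 2 and the second library labelled Etv5KO had the lowest summed AT2 markers of their groups, 132828 CPM against 183384 to 203355 CPM and 126617 CPM against 135264 to 161131 CPM. Most of this sum was Sftpc, Sftpb, Sftpa1 and Slc34a2, and it includes Etv5. Sftpc alone was also lowest of its group in these libraries, at 53501 and 57490 CPM.

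The first question was where these genes are expressed. Control AT2 cells carried several times more transcript for sterol synthesis than control lung, and much less for the exporters Abca1 and Abcg1. Of the 31 genes, 23 were higher, 4 lower and 4 did not pass, where 74.5% of all genes tested passed, 35.6% higher and 38.9% lower. For 23 of them every AT2 library lay above every lung library and for 4 below, as did 30.6% and 35.9% of all genes. The median log2 fold change was 1.61 over the 31 genes and -0.01 over all genes. In bulk RNA, fewer cells of a type and less RNA per cell cannot be told apart, and whole lung holds AT2 cells among many others.

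All 7 enzymes of the mevalonate pathway were higher in control AT2 cells. Fdps, which makes farnesyl diphosphate, stood at 49.1, 21.4, 41.8 and 32.0 CPM in the 4 AT2 libraries and at 3.95, 4.63, 6.87, 7.27 and 5.34 CPM in the 5 lung libraries. Every AT2 library lay above every lung library, and the log2 fold change was 2.67 (SE 0.24, adjusted p = 8.64e-07). Pmvk, phosphomevalonate kinase, followed with 147 ± 64.2 CPM (n = 4) against 23.5 ± 5.67 CPM (n = 5), a log2 fold change of 2.64. Acat2, the thiolase that joins the first acetyl-CoA units, had 89.4 ± 14.6 CPM against 15.7 ± 2.25 CPM, a log2 fold change of 2.51. Hmgcs1 (HMG-CoA synthase), Mvk (mevalonate kinase), Mvd (mevalonate diphosphate decarboxylase) and Idi1 (isopentenyl diphosphate isomerase) had log2 fold changes of 1.84, 1.495, 2.12 and 2.12. Ggps1, which draws farnesyl diphosphate away from sterols to make geranylgeranyl diphosphate, had a log2 fold change of -0.19 that did not pass (adjusted p = 0.0543).

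In the sterol pathway proper, 10 of 12 enzymes were higher in control AT2 cells. Tm7sf2, a sterol reductase, had 34.2 ± 10.2 CPM (n = 4) against 6.55 ± 0.71 CPM (n = 5) in lung, a log2 fold change of 2.38. Nsdhl, a dehydrogenase that takes part in removing methyl groups from the sterol ring, had 104 ± 31.03 CPM against 19.9 ± 3.26 CPM, also 2.38. Sqle, squalene epoxidase, an oxygen-dependent and rate-limiting enzyme, read 257, 146, 207 and 183 CPM in control AT2 cells and 36.7, 36.8, 46.6, 56.4 and 40.3 CPM in control lung. The lowest AT2 library was above the highest lung library, with a log2 fold change of 2.19. Fdft1 (squalene synthase), Lss (lanosterol synthase), Cyp51 (lanosterol demethylase), Msmo1 (methyl sterol oxidase), Hsd17b7 (a ketosterol reductase), Sc5d (a sterol desaturase) and Dhcr7 (a last-step reductase) ranged from 0.79 for Sc5d to 2.27 for Cyp51. The exceptions were Ebp, a sterol isomerase, and Lbr, the lamin B receptor. Lbr carries the same reductase activity as Tm7sf2, and it stood at 85.9 ± 8.46 CPM in AT2 cells and 83.7 ± 3.59 CPM in lung. Over the 19 enzymes, 17 were higher and the median fold was 4.36, where the 8 AT2 markers started at 6.26.

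The sensor genes were all higher in control AT2 cells. Srebf2, which encodes SREBP2, read 574, 459, 503 and 532 CPM in AT2 cells and 208, 215, 219, 234 and 216 CPM in lung. The groups were far apart, and the log2 fold change was 1.24 (SE 0.08). Insig1, the retention factor that SREBP2 itself induces, read 361, 256, 319 and 364 CPM in AT2 cells and 52.6, 55.9, 75.6, 68.8 and 61.4 CPM in lung. Its log2 fold change was 2.37 (SE 0.13), against 0.70 for Insig2, its relative that is less tied to SREBP activity, and 0.89 for Scap. Soat1, which esterifies cholesterol for storage, had 648 ± 56.9 CPM against 146 ± 13.9 CPM, a log2 fold change of 2.15. Stard4, a cytosolic sterol carrier, had a log2 fold change of 0.70.

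Within the LXR arm, Abcg1, Abca1 and Mylip ran the other way. These values describe the listed genes only, and LXR activity was not measured. Abcg1, an exporter to lipoprotein particles, stood at 4.57 ± 1.34 CPM (n = 4) in control AT2 cells and 174 ± 2.78 CPM (n = 5) in control lung, a log2 fold change of -5.25 (SE 0.16, adjusted p = 6.9e-11). Abca1, which passes cholesterol to apolipoproteins, stood at 25.2 ± 6.20 CPM against 96.4 ± 22.9 CPM, a log2 fold change of -1.94. Mylip, an LXR-induced ubiquitin ligase that removes lipoprotein receptors, had a log2 fold change of -1.97. The receptors differed less: Nr1h3 (LXR alpha) had a log2 fold change of -0.42 (adjusted p = 0.00713), and Nr1h2 (LXR beta), at 95.1 ± 4.07 against 91.4 ± 4.72 CPM, did not pass. The 9 macrophage markers measured, from cells known for high LXR activity, summed to 49.1 to 82.3 CPM in control AT2 libraries and 949 to 1236 CPM in control lung. None of them was at 0 in either group, and their part in the levels of Abcg1 and Abca1 was not tested.

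**Figure D1:**
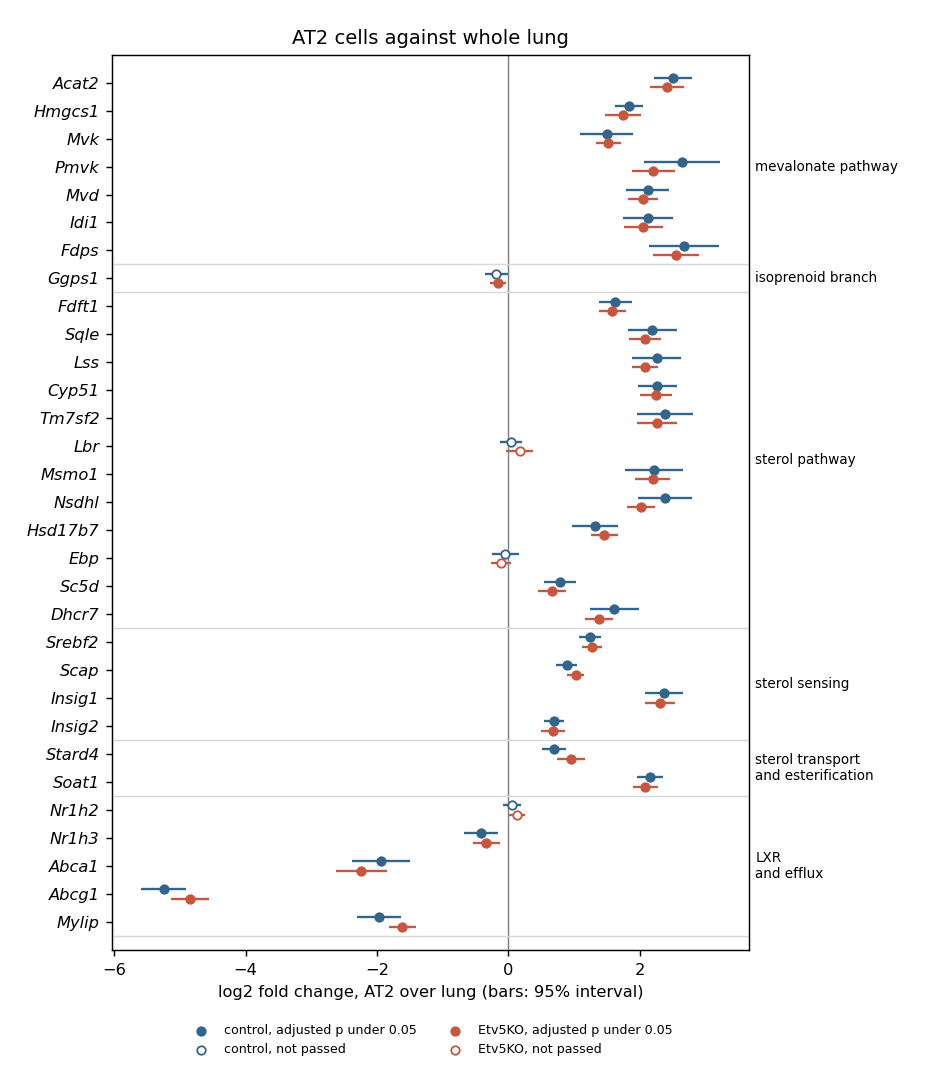
Log2 fold change of AT2 cells over whole lung for each of the 31 genes (x axis), by role, in control libraries (4 against 5) and in libraries labelled Etv5KO (5 against 5). Points are edgeR estimates with 95% intervals and filled points passed an adjusted p of 0.05. Most synthesis and sensing genes lie between 0.66 and 2.67, Abca1, Abcg1 and Mylip lie between -1.62 and -5.25, and Lbr and Nr1h2, near 0 here, turn negative if libraries are scaled by size alone.

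In separate libraries, those labelled Etv5KO, 23 genes were higher and 5 lower in AT2 cells than in lung, where 78.0% of all genes passed, 38.3% higher and 39.7% lower. Without overlap, 23 lay above and 4 below, where 29.7% and 35.9% of all genes did. The largest log2 fold changes were 2.56 for Fdps, 2.41 for Acat2, 2.31 for Insig1, 2.26 for Tm7sf2, 2.25 for Cyp51 and 2.20 for Pmvk. Abcg1, Abca1, Mylip, Nr1h3 and Ggps1 were lower, by log2 fold changes of -4.84, -2.24, -1.62, -0.34 and -0.16. Ggps1 did not pass without AT2 library 1 or 5 or lung library 1 or 2, where its adjusted p was 0.0589, 0.0711, 0.051 and 0.0543.

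Scaling mattered for the genes near 0. With libraries scaled by size alone, the median log2 fold change of all genes moved by -0.41 in the control comparison and -0.37 in the Etv5KO one, and higher genes fell from 47.8% to 25.9% and from 49.1% to 27.7% of all calls. The median of the 31 genes was then 1.19 against -0.42 for all genes in controls, and 1.15 against -0.36 in libraries labelled Etv5KO. The count of higher genes stayed at 23 in both comparisons, while lower genes in controls went from 4 to 8 with Ebp (-0.46), Ggps1 (-0.59), Lbr (-0.36) and Nr1h2 (-0.35). Lbr and Nr1h2 changed sign in both comparisons, and Lbr also did so in controls with the authors' size factors.

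Per transcript length, the authors' size-factor-adjusted RPKM gives the order of levels between genes. In control AT2 cells Soat1 was highest at 127 ± 11.6 RPKM (n = 4), followed by Insig1 at 115 ± 18.04, Hmgcs1 at 105 ± 10.99, Msmo1 at 99.8 ± 28.1, Pmvk at 91.5 ± 39.7 and Srebf2 at 86.2 ± 8.47. Neighbours in this order differed by less than the larger of their SDs. At the low end stood Mylip at 4.70, Idi1 at 2.68, Abca1 at 2.24 and Abcg1 at 0.74 RPKM. In control lung Nr1h2 led at 43.6 ± 2.02 RPKM (n = 5), before Srebf2 at 37.5 ± 1.77, Hmgcs1 at 30.1 ± 3.38, Soat1 at 29.4 ± 2.86 and Abcg1 at 28.998 ± 0.62, and Idi1 was lowest at 0.63. Nr1h2 was thus near the same level in both tissues, and Abcg1 moved from the last place in AT2 cells to the fifth in lung. Idi1 rested on 27 to 263 counts a library, Abcg1 on 55 to 5187 and Fdps on 79 to 966. Only uniquely aligned reads were counted, and the order of levels is not corrected for reads lost to near copies.

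The study's main question was what the change at Etv5 does. In AT2 cells 2 of the 31 sterol genes passed, 1 in each direction, where 9.87% of all genes tested passed (5.03% higher and 4.84% lower). Stard4 rose 1.24-fold and Abca1 fell to 0.645 of the control level, and none of the 19 synthesis enzymes or the 4 sensor genes passed. The 2 groups' libraries overlapped for every one of the 31 genes, where 12.4% of all genes tested did not overlap. The median log2 fold change was 0.05 over the 31 genes (18 above 0 and 13 below, or 23 and 8 with libraries scaled by size alone) and -0.01 over all genes. With size alone as the scale, higher genes also made up 65% rather than 50.9% of all calls.

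Stard4 (Entrez Gene 170459) read 130.5, 112, 115 and 121 CPM in the control AT2 libraries and 164, 130.2, 158, 137 and 148 CPM in those labelled Etv5KO. All Etv5KO libraries but 1 lay above every control, and the groups overlapped by that single library. This is a log2 fold change of 0.31 (SE 0.08, 95% interval 0.13 to 0.49, adjusted p = 0.0382). The call ended without control library 2, 3 or 4 (adjusted p = 0.0737, 0.115 and 0.0805) or library 1, 3 or 5 labelled Etv5KO (0.0876, 0.0881 and 0.0792), while the log2 fold change stayed between 0.27 and 0.35. It also ended without the filter on low counts (0.0505) and in a fit of all 19 libraries (0.0555).

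Abca1 (Entrez Gene 11303) read 17.8, 25.6, 24.3 and 32.9 CPM in the control AT2 libraries and 19.6, 14.7, 16.1, 14.8 and 15.7 CPM in those labelled Etv5KO. Of the control libraries, 3 lay above all Etv5KO libraries, and the lowest control lay among them. This is a log2 fold change of -0.63 (SE 0.16, 95% interval -0.97 to -0.29, adjusted p = 0.0241). The call ended without control library 3 or 4 (adjusted p = 0.0524 and 0.065) or library 2, 3, 4 or 5 labelled Etv5KO (0.0529, 0.0537, 0.056 and 0.056), and in a fit of all 19 libraries (0.0607). Of the macrophage markers, 1 of 9 was higher in the libraries labelled Etv5KO (Cd68, 28.98 ± 2.01 against 18.6 ± 3.99 CPM), and none passed as lower. Csf1r had a fold of 0.628 (adjusted p = 0.0782) and Mrc1 of 1.53 (adjusted p = 0.114). Marco had 0.561 (adjusted p = 0.21), at only 0.38 against 0.69 CPM. The median fold of the 9 markers was 1.005. The 9 markers summed to 62.8 to 78.9 CPM against 49.1 to 82.3 CPM. Their part in the Abca1 value was not tested. The other genes of the LXR arm did not pass: Abcg1 had a log2 fold change of 0.29 (95% interval -0.16 to 0.74), Mylip 0.13, Nr1h3 0.06 and Nr1h2 0.05.

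**Figure D2:**
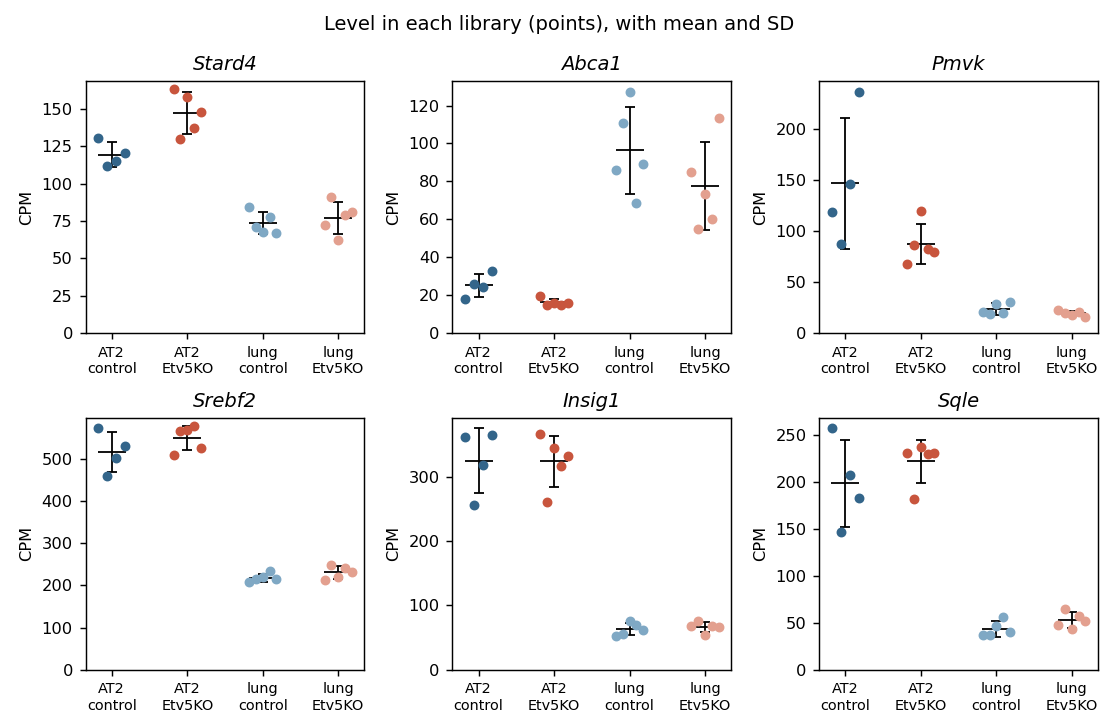
Level in CPM (y axis, from 0) of Stard4, Abca1, Pmvk, Srebf2, Insig1 and Sqle in each of the 19 libraries (points) by group (x axis), with the group mean and SD. AT2 and lung separate fully for all 6 genes, while control and Etv5KO points of a tissue overlap, for Abca1 in AT2 cells at 17.8 against 14.7 to 19.6 CPM.

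Among the enzymes, the point estimate farthest from 0 belonged to Pmvk. It read 118, 87.0, 146 and 236 CPM in control AT2 libraries and 67.4, 85.8, 120.0, 82.7 and 79.5 CPM in those labelled Etv5KO. The control group was widely spread and the groups overlapped, and the log2 fold change of -0.75 (SE 0.25, 95% interval -1.29 to -0.20) did not pass (adjusted p = 0.089). It passed in a fit of all 19 libraries (0.0342) and without control library 2 (0.0188). Sqle read 230.1, 182, 237, 229 and 230.2 CPM in the AT2 libraries labelled Etv5KO, inside the control range of 146 to 257 CPM, with a log2 fold change of 0.17 (95% interval -0.15 to 0.48). Hsd17b7 had a log2 fold change of 0.32 (adjusted p = 0.215), and without control library 1 it had 0.51 and passed (adjusted p = 0.0118). The other 16 enzymes had log2 fold changes between -0.16 for Acat2 and 0.28 for Idi1, with 95% intervals that together reached from -0.53 to 0.62.

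None of the 4 sensor genes passed. Srebf2 read 511, 567, 567.9, 578 and 527 CPM in AT2 libraries labelled Etv5KO, within the control range but for the highest of them, and its log2 fold change was 0.10 (95% interval -0.08 to 0.27). Insig1 read 366, 259.9, 344, 317 and 331 CPM, close to the span of 256 to 364 CPM in controls, and its log2 fold change was 0.00 (95% interval -0.27 to 0.27). Scap and Insig2 had log2 fold changes of 0.14 (-0.03 to 0.31) and -0.02 (-0.21 to 0.17). Soat1, at 563 ± 38.7 against 648 ± 56.9 CPM, had a log2 fold change of -0.20 (adjusted p = 0.171), and Ggps1 of -0.09.

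In whole lung none of the 31 genes passed by edgeR, DESeq2 or limma-voom, where 0.415% of all genes tested passed by edgeR. Their groups overlapped in every case, where 1.52% of all genes did not overlap. At an unadjusted p under 0.05 edgeR had 2 of them, Nsdhl with a log2 fold change of 0.34 (adjusted p = 0.5) and Mylip with -0.22 (adjusted p = 0.817). The enzymes lay slightly above 0, with 15 of 19 positive and a median log2 fold change of 0.13, and the 5 genes of the LXR arm were all below 0, with a median of -0.11, although Nr1h2 and Nr1h3 turned positive and Mvd changed sign with libraries scaled by size alone. Over all genes tested in lung, 7864 were positive and 9234 negative. Most enzymes rose and fell together between lung libraries, as given below, so their signs are not separate observations. In the same lung libraries the macrophage marker Marco fell (log2 fold change -1.29, adjusted p = 0.0167), and 8 of the 9 macrophage markers had a negative estimate, with a median fold of 0.88. Their summed level was 854 to 1174 CPM against 949 to 1236 CPM in control lung. Of the 8 AT2 markers, Sftpa1 fell (log2 fold change -0.78, adjusted p = 0.0305). The part of these markers in the values of the LXR arm and the enzymes was not tested. Stard4 read 84.5, 71.1, 67.8, 78.0 and 67.1 CPM in control lung and 72.4, 91.3, 62.3, 78.8 and 81.0 CPM in lung labelled Etv5KO. Abca1 read 86.0, 111, 127, 68.4 and 89.2 CPM in control lung and 85.0, 55.1, 73.4, 60.4 and 113 CPM in lung labelled Etv5KO. Both pairs of groups overlapped broadly, with log2 fold changes of 0.06 (95% interval -0.15 to 0.27) and -0.32 (95% interval -0.77 to 0.12). Srebf2 read 213, 249, 219, 240.4 and 232 CPM in lung labelled Etv5KO, Insig1 67.8, 75.0, 54.4, 67.2 and 65.9 CPM, and Sqle 48.1, 64.7, 43.3, 57.2 and 51.7 CPM. The ranges overlapped those of control lung for all 3 genes.

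**Figure D3:**
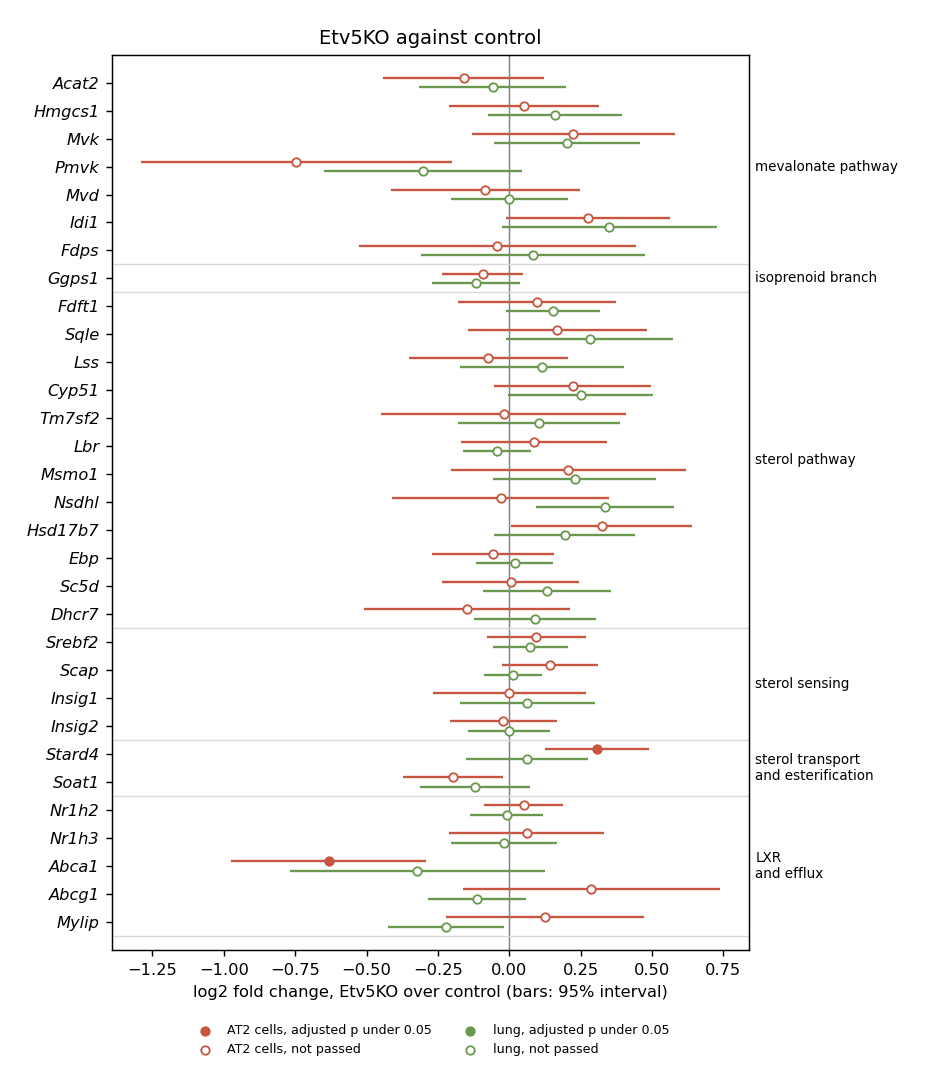
Log2 fold change of libraries labelled Etv5KO over control for each of the 31 genes (x axis), by role, in AT2 cells (5 against 4) and whole lung (5 against 5). Points are edgeR estimates with 95% intervals, and filled points passed an adjusted p of 0.05. Stard4 at 0.31 and Abca1 at -0.63 in AT2 cells are the filled points, and the intervals of most other genes cross 0.

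The difference between the genotype effects in AT2 cells and in lung was tested as an interaction over all 19 libraries. None of the 31 genes passed, also at an unadjusted p under 0.05, where 1.59% of all genes tested passed by edgeR, and none passed by DESeq2 or limma-voom. For Stard4 the effect in AT2 cells minus that in lung was 0.24 on the log2 scale (95% interval -0.04 to 0.52, adjusted p = 0.626), and for Abca1 it was -0.32 (95% interval -0.91 to 0.26, adjusted p = 0.827). So the calls in AT2 cells were not shown to differ from lung. AT2 and lung effects had the same sign for 19 of the 31 genes (13 positive, 6 negative) and opposite signs for 12. These comparisons share no library, but they may share mice, and whole lung holds AT2 cells. The signs are therefore not independent, and the share of equal signs over all genes was not computed.

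Libraries of a group differed among themselves, and the enzymes shared much of this spread. After subtracting each group's mean, 152 of the 171 pairs among the 19 enzymes correlated positively over the 9 AT2 libraries, with a median r of 0.77. Over the 10 lung libraries 154 of 171 did, with a median r of 0.55. These are descriptions over libraries that each gave all 19 values at once. Control library 2 was the lowest of its group for 16 of the 19 enzymes, with a mean deviation of -0.37 on the log2 scale, and control library 1 the highest for 16 (0.28). Among AT2 libraries labelled Etv5KO, the second was lowest for 17 enzymes (-0.25). Control library 2 and this library also had the highest scores on the second principal component of the AT2 libraries, 31.04 and 12.1. That component was taken over all genes with a mean count of at least 50 and held 23.2% of their variance.

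The enzymes that best followed the mean of the other enzymes in AT2 cells were Msmo1 (r = 0.99), Mvd (0.99), Sqle (0.98) and Sc5d (0.96). Insig1, the sensor gene, followed with r = 0.87, Srebf2 with 0.54 and Stard4 with 0.69, while the median over 13938 genes was -0.02. The enzymes Hmgcs1 (0.61) and Idi1 (0.52) followed less closely. Pmvk (0.15) and Lbr (-0.56) did not follow, and neither did Ggps1 (-0.46), Abca1 (-0.27) or Mylip (-0.56). Without control library 2 the median r of the enzyme pairs was 0.70 with 140 of 171 positive, Msmo1 kept 0.99, Insig1 had 0.74 and Srebf2 0.02. The second library labelled Etv5KO, also low for most enzymes, stayed in that check, and the correlations without it were not computed. In lung, Sqle (0.96), Msmo1 (0.93), Srebf2 (0.90) and Cyp51 (0.90) followed the mean most closely, and Abca1 had -0.53. The enzymes that followed it least in lung were Sc5d (0.34), Tm7sf2 (0.07) and Pmvk (-0.06). Sftpc, the surfactant protein C transcript, had r = 0.85 with the enzyme mean in AT2 cells, 0.59 without control library 2, and 0.68 in lung. The level of this AT2 transcript thus moved with the enzymes, and its part in their common spread was not tested.

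**Figure D4:**
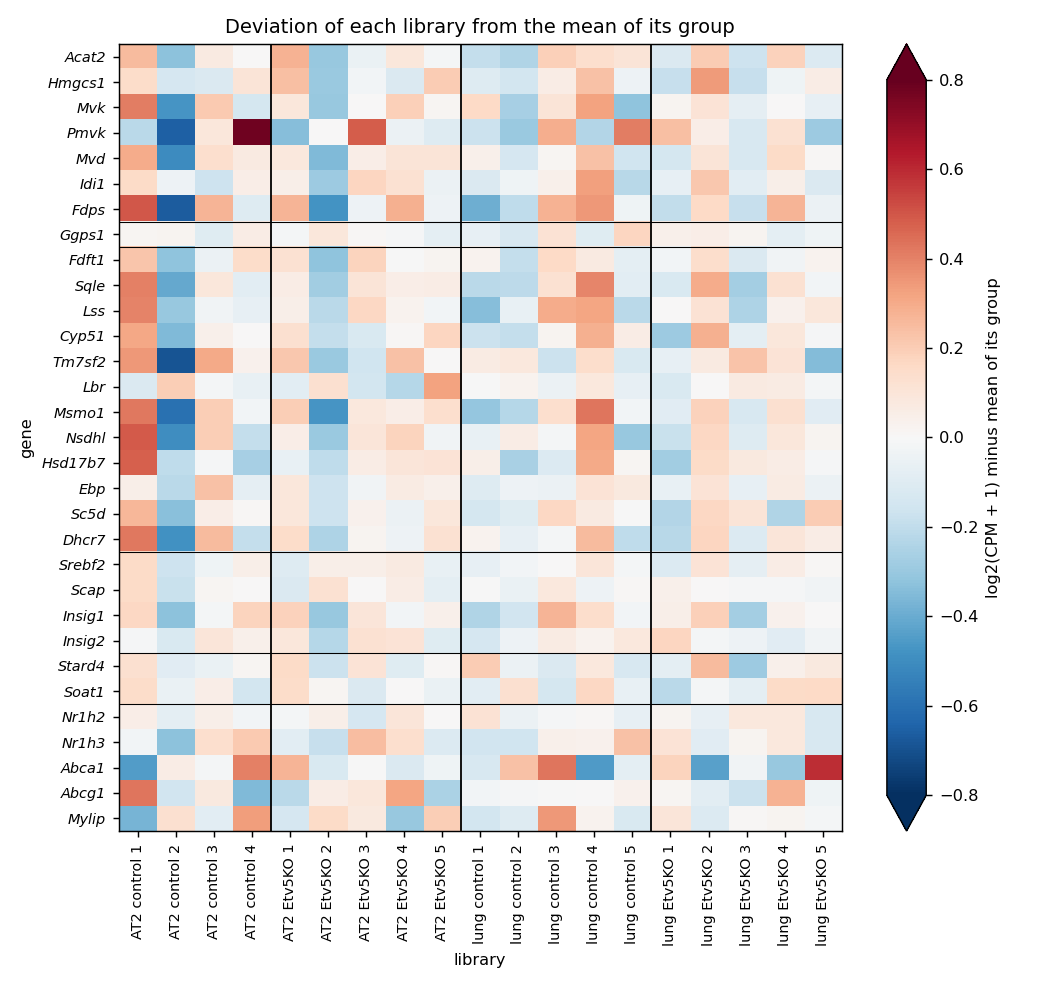
Deviation of each library (x axis) from the mean of its own group for the 31 genes (y axis, by role), as log2(CPM + 1), blue below and red above. The columns of AT2 control 2 and AT2 Etv5KO 2 are blue for most enzymes (16 and 17 of 19 at their group's lowest), AT2 control 1 and lung control 4 are red, and the rows of Lbr, Ggps1 and Mylip do not follow.

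The promoters of the 31 genes were also read for the letters of known regulators. Whether these letters have a part in the common spread of the enzymes was not tested. RefSeq windows of 300 bases around the start (GRCm38.p6) were at hand for 26 of the 31 genes and 16 of the 19 enzymes, with no entry for Fdps, Fdft1, Sqle, Stard4 and Abcg1. The box CCAAT, bound by NF-Y, a partner of SREBP2, was found on either strand in 21 of 26 genes and in 15 of 16 enzymes, all but Acat2, and in 41.1% of 27025 genes with a window. A gene counted if any of its windows matched. The 27025 genes were not limited to those expressed here, and the share among expressed genes was not computed. The sterol regulatory element TCACNCCAC, to which SREBP2 binds, was found in Hmgcs1, and in 1.44% of all genes. Its looser form TCACNCNAC, which includes the first, was found in Hmgcs1 and Nsdhl, and in 3.15% of all genes. The ETS core CCGGAAGT, a form bound by ETS factors such as Etv5, was found in Insig2 and Nr1h2, and in 4.31% of all genes. The LXR repeat, AGGTCA read again after a gap of 4 bases, was found in none of the 26 and in 0.0148% of all genes. A match describes letters only, and the absence of one says nothing of binding.

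The stretches shown first are those of Hmgcs1 with the sterol element and of Nsdhl with its looser form. Then come 4 enzymes that best followed the common course among those with a CCAAT match upstream, so each holds the box by choice. The others are Srebf2 and Insig1, the sensor genes whose values are given in every library, and Nr1h2, the receptor gene with an ETS core. All are read 5′ to 3′ on the strand of the gene, upstream of its start, with the matched letters in capitals. They mark the sterol element in Hmgcs1, its looser form in Nsdhl, the CCAAT box or its reverse complement ATTGG in Msmo1 to Srebf2, and the ETS core in Nr1h2.
Hmgcs1, chr13:119690189-119690247, plus strand: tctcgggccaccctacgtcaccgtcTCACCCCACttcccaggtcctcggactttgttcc
Nsdhl, chrX:72918291-72918349, plus strand: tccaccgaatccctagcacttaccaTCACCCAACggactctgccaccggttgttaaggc
Msmo1, chr8:64733604-64733658, minus strand: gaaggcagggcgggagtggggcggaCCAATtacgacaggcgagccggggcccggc
Mvd, chr8:122443423-122443474, minus strand: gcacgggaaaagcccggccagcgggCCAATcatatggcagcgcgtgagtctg
Sc5d, chr9:42264301-42264349, minus strand: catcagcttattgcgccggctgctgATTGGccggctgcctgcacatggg
Mvk, chr5:114444230-114444268, plus strand: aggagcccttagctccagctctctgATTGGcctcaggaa
Insig1, chr5:28071171-28071225, plus strand: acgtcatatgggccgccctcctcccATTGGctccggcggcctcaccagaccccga
Srebf2, chr15:82147109-82147163, plus strand: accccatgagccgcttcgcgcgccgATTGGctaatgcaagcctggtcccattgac
Nr1h2, chr7:44553966-44554019, minus strand: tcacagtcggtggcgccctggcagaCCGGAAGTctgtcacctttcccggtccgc

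Genes around the pathway held further calls in AT2 cells. Of 15 genes of sterol uptake and transport, 1 rose and 3 fell (median log2 fold change 0.07). Of 12 genes of SREBP processing and reductase turnover, 1 fell (-0.02), and of 6 further genes of synthesis, 2 rose (0.27). Of 11 genes of sterol esters and oxysterols 6 passed the filter on low counts, and 1 of them rose (-0.05), whereas none of 12 further genes of the isoprenoid branch passed (-0.04). Over all genes 9.87% passed and the median was -0.01. The largest rise was that of Nceh1, a hydrolase that frees cholesterol from its esters. It read 154, 158, 189 and 173 CPM in control AT2 libraries and 271, 259, 279, 278 and 246 CPM in those labelled Etv5KO. The groups did not overlap, with a log2 fold change of 0.67 (SE 0.07, adjusted p = 0.000174). Pgrmc1, a haem-binding partner of sterol-modifying cytochromes, had 42.1 ± 3.002 CPM (n = 5) against 28.2 ± 5.09 CPM (n = 4), a log2 fold change of 0.58 (adjusted p = 0.00742).

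Apoe, the apolipoprotein that takes up exported cholesterol, read 568.3, 337, 490.4 and 507 CPM in control AT2 libraries and 207, 206, 198, 269.8 and 269.99 CPM in those labelled Etv5KO. Every control lay above every Etv5KO library, with a log2 fold change of -1.04 (SE 0.15, adjusted p = 0.0012). Stard5, a sterol carrier related to Stard4, read 38.6, 39.1, 42.3 and 35.6 CPM in controls and 26.9, 21.2, 26.0, 24.9 and 25.3 CPM in libraries labelled Etv5KO, also without overlap, with a log2 fold change of -0.64 (adjusted p = 0.000625). The carriers Stard4 and Stard5 thus had estimates of opposite sign in the same libraries. Srebf1, which encodes the SREBP form tied to fatty acid synthesis, had a log2 fold change of -0.33 (adjusted p = 0.0453), and Cyb5r3, which supplies electrons to sterol-modifying enzymes, of 0.24 (adjusted p = 0.0402). The lysosomal exporter Npc1 had 0.26 (adjusted p = 0.0454) and the sterol exchange protein Osbp -0.24 (adjusted p = 0.0385). Of the 9 fits without 1 library, Srebf1 and Osbp lost their call in 8, Npc1 in 7 and Cyb5r3 in 9, with adjusted p up to 0.135, 0.118, 0.154 and 0.118. In lung 1 gene of these 5 lists passed, Npc2, which lifts cholesterol out of lysosomes, at 1313 ± 136 CPM against 909 ± 75.2 CPM. Its log2 fold change of 0.53 (adjusted p = 0.0322) lost its call in 9 of 10 such fits (up to 0.0918). In AT2 cells Npc2 also had a log2 fold change of 0.53, at 9022 ± 1683 against 6297 ± 1168 CPM, and did not pass (adjusted p = 0.0744).

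The AT2 libraries labelled Etv5KO also differed in cell type markers. Of 8 AT2 markers 2 were lower (Sftpa1 and Napsa, log2 fold changes -0.93 and -0.45). Of 8 AT1 markers 4 were higher (Ager, Clic5, Akap5 and Cav1) and 1 lower (Aqp5). The summed AT1 markers stood at 3736 to 4204 CPM against 2685 to 3507 CPM in controls. Most of this sum was Ager, at 2994 ± 251 against 2241 ± 291 CPM. Of 7 airway markers tested 2 were higher (Cyp2f2 and Tppp3), and none of the 8 endothelial, 8 fibroblast and muscle or 5 lymphocyte markers tested passed. Their part in the values of Stard4, Abca1, Apoe, Nceh1 and Stard5 was not tested.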

How the data were processed

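Reads aligning uniquely to each gene model were counted by the authors, per the file headers, and a further deposited column holds RPKM divided by the authors' size factor for each library. GSNAP and mm9 are named in the submitters' processing notes. Annotation, counting tool and strand use: not given in the sources used here. Unique alignment lowers genes with near copies: Acat3, close to Acat2, had 292 to 873 counts, and Idi2, close to Idi1, 0 to 2. Copies were looked for by name only, and the counts of a copy do not show how many reads were lost.

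Of 36528 identifiers, 31049 (98.721% of counts) were named from a RefSeq table of GRCm38.p6. Since this is not mm9, coordinates are given only for RefSeq promoter windows, in that build. Counts were tested with edgeR 4.0.16 in R 4.3.3: filterByExpr (minimum count 10, total 15), TMM scaling, quasi-likelihood F test, two-sided, Benjamini-Hochberg adjustment over all genes tested, threshold 0.05. Each tissue was fitted alone, AT2 cells against lung within a genotype, and the difference of effects as an interaction over 19 libraries. Standard errors come from the F statistic. DESeq2 1.42.0, limma-voom (limma 3.58.1), other scalings, no filter, 1 joint fit and leaving out each library were alternatives. Correlations used log2(CPM + 1) minus the group mean, over genes with a mean count of at least 50, and a gene was left out of the enzyme mean it was compared with. The fits were tested on simulated data.

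Libraries were numbered in accession order, which pairs nothing, and the labels do not link AT2 and lung libraries to a mouse. The design names 5 mice a genotype, and 4 control AT2 libraries were analysed here. Where libraries do not come from separate mice, p-values cover only the spread between these libraries. The 31 genes and all lists were chosen with earlier results of these data known. Values in every library are given for those of the 31 genes past the threshold between genotypes and for Srebf2, Insig1, Sqle and Abca1, the 6 largest differences each way between tissues are named, and up to 2 genes with the smallest p from each of 5 further lists. Pmvk, Hsd17b7, Fdps, Npc1, Osbp, single markers and genes in the correlation text were singled out after their values were seen.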

Additional observations from a re-analysis of the deposited data

Results flagged for a closer look

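In 160 groups of 4 or 5 libraries (40 genes in 4 groups), 6 held a library that stood apart by Dixon's criterion, where chance gives about 1 in 20. The second AT2 library labelled Etv5KO was low for 3 synthesis enzymes: Mvd at 50.9 CPM against 67.8 to 70.4 CPM in the others, Sqle at 182 against 229 to 237 CPM, and Msmo1 at 158 against 228 to 251 CPM. Abca1 stood at 19.6 CPM in the first AT2 library labelled Etv5KO, against 14.7 to 16.1 CPM. Insig2 stood at 46.3 CPM in the first lung library labelled Etv5KO, against 38.4 to 40.6 CPM, and Apoe at 473 CPM in the fifth, against 312 to 350 CPM.

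For 4 genes around the pathway the genotype effect in AT2 cells differed from that in lung by edgeR's interaction test, with Benjamini-Hochberg adjustment. The difference of the effects on the log2 scale was -0.63 for Stard5 (95% interval -0.84 to -0.42, adjusted p = 0.00124), -0.82 for Apoe (-1.25 to -0.39, adjusted p = 0.0465), 0.51 for Nceh1 (0.30 to 0.73, adjusted p = 0.0105) and 0.62 for Pgrmc1 (0.34 to 0.90, adjusted p = 0.0189). The Apoe difference ended under 5 of the 6 other tools, filters and scalings and in 14 of 19 fits without 1 library (adjusted p up to 0.146).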

How the results depend on the processing

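No paired analysis was made because the labels do not link AT2 and lung libraries to a mouse, and numbers in accession order pair nothing. The titles hold a serial number for each library, but nothing ties it to a mouse. Apart from leaving out libraries, 65 of 68 alternative counts of the 31 genes called stayed within 1.5 times the main count. This share includes counts that stayed at 0, and it does not follow which gene was called. In AT2 cells, the fit of all 19 libraries lost the call of Abca1 and gained that of Pmvk. In AT2 cells, genes higher in libraries labelled Etv5KO went from 1 to 0 without the filter on low counts and to 0 in a fit of all 19 libraries. Between the tissues of control mice, genes lower in AT2 cells went from 4 to 8 with libraries scaled by size alone. Without 1 library, genes higher in AT2 libraries labelled Etv5KO ranged from 0 to 2 and genes lower from 0 to 2, whereas the lung comparison and the interaction stayed at 0. No called gene named in the text changed direction. Over all genes, calls in lung were 71 by edgeR, 197 by DESeq2, 122 in the fit of all 19 libraries, and 47 and 44 without control library 3 or 4. Calls in the interaction were 282 by edgeR and 467 by DESeq2. The cause of these shifts was not tested. The number of libraries limits what can be seen: in AT2 cells 95% intervals of the synthesis enzymes reached from -1.29 to 0.64 on the log2 scale.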
